A study of Mus musculus with 36 samples.

Results

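Genes of mitosis and of the kinetochore, the protein platform on which a chromosome meets the spindle, were followed across 36 arrays of mouse CD8 T cells. The set held 40 listed genes. The annotation of the array gave 39 of them a probe set, among 18193 genes measured in all. Ccnb1, which encodes cyclin B1, was not listed with a probe set of its own and is not analysed here. A gene with several probe sets was read from the one whose mean over the 36 arrays was highest. The rule that lists the genes uses no measured value, though they were listed with earlier results of these data known. The cells were OT-I CD8 T cells, whose transgenic receptor recognises an ovalbumin peptide. They carried a short hairpin RNA (shRNA) and had been transferred into mice bearing B16, a melanoma line. Each of the 6 hairpins, against LacZ (the bacterial control gene), Ppp2r2d, Egr2, Ptpn2, Arhgap5 or Alk, had 3 arrays labelled spleen and 3 labelled tumor. All 12 groups therefore shared the receptor, the transduction and the tumor-bearing host. The sources used here give neither the age and strain of the mice nor the time in the host, nor whether animals were pooled. The labels do not say whether the 3 arrays of a group are separate animals, so a p-value measures the spread between arrays.

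Entry into mitosis is driven by Cdk1 bound to cyclin A or cyclin B, with Plk1 and the Aurora kinases acting beside it. On condensed chromosomes the histone variant Cenpa marks the centromere, and the Ndc80 complex of the outer kinetochore holds the spindle microtubules. The spindle checkpoint delays anaphase until all kinetochores are attached. Cdc20 then activates a ubiquitin ligase, the APC/C, that lets separase (Espl1) cut the link between sister chromatids. Most of these genes are transcribed late in the cell cycle. In CD8 T cells they are known to be high during clonal expansion and low in resting cells.

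The tissue labels were first set against markers of other cells. All values are log2 levels as deposited, in which 1 unit is a doubling of the RMA summary of a probe set. Array medians lay between -0.48 and -0.23. The mean of 8 melanocyte markers lay between 2.68 and 4.46 in the 18 arrays labelled spleen and between -1.35 and -0.19 in the 18 labelled tumor. Dct, an enzyme of melanin synthesis, ran from 4.29 to 5.87 in the former and from -2.58 to -0.97 in the latter. The mean of 8 macrophage markers ran from 1.79 to 4.67 in arrays labelled spleen and from -2.39 to -0.67 in those labelled tumor. Pigment and macrophage genes were thus high under the spleen label and low under the tumor label, opposite to what the names of the tissues would give, and groups are therefore named by their label and not as tissues. T cell markers (6 measured) were high under both, at 6.10 to 7.10 and 4.87 to 7.29. Means of the B cell, erythroid and stromal lists stayed at or below 0.59 in every array, though single genes went above that. Cd79b ran from -0.38 to 0.9 labelled spleen and from 0.77 to 2.21 labelled tumor, and Pecam1 from 1.3 to 2.5 and from 1.95 to 3.28. Klf1 reached 1.93 in arrays labelled tumor, and Col1a1 and Col3a1 reached 1.4 and 1.79 in those labelled spleen.

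Some arrays stood apart. In 17 arrays labelled tumor the highest correlation with another array lay between 0.978 and 0.993, whereas Ptpn2 array 1 labelled tumor reached 0.891. That array also had a 3' to 5' difference of Gapdh, a sign of RNA quality, of 2.94 against 0.86 to 1.14 in the other 17, and it had the lowest T cell mean, 4.87. The 3 LacZ arrays labelled spleen had highest correlations of 0.954 to 0.971, against 0.982 to 0.991 in the other 15. Their 3' to 5' difference of Gapdh was 0.83 to 1.39, against 0.25 to 0.83 in those 15. The lowest value of an array ran from -4.51 to -1.38, so low levels are not on the same footing in all arrays. It was -1.38 in Ptpn2 array 3, -1.45 in Egr2 array 2 and -1.88 in Alk array 1 labelled tumor, and -1.45 in LacZ array 2 labelled spleen. Melanocyte means labelled tumor were highest in Ptpn2 array 3 and Egr2 array 2, at -0.19 and -0.20. Counts that rest on Ptpn2 array 1 or on the LacZ arrays labelled spleen are given below with and without them where that could be done. Values of single genes use all arrays unless said otherwise. An adjusted p is from limma with the Benjamini-Hochberg method over all 18193 genes, a gene is called at an adjusted p under 0.05, and n = 3 arrays a group. A spread after ± is an SE for a difference and an SD for a mean of arrays.

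**Figure D1:**
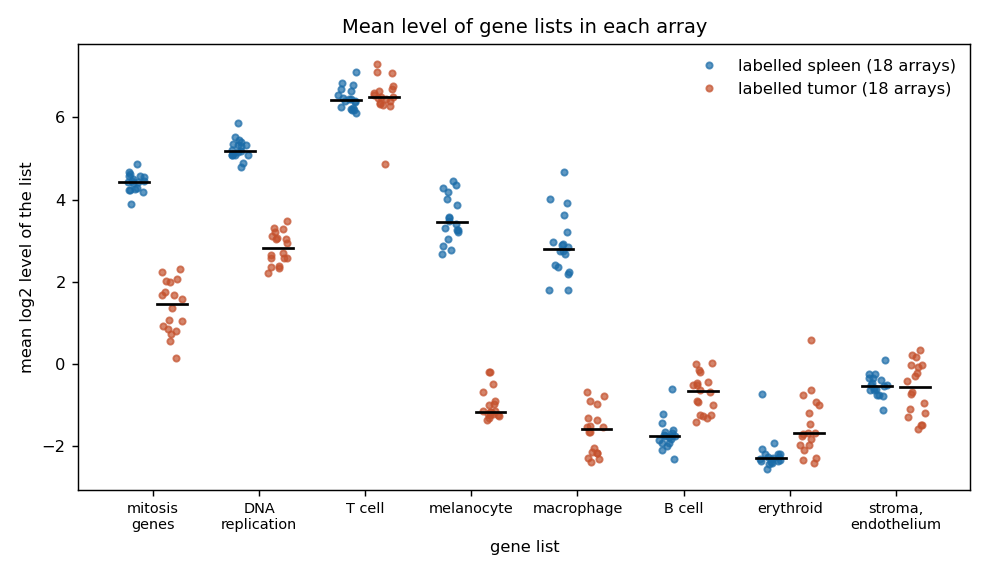
Mean log2 level of each gene list in each array (points) with the median of 18 arrays (bars), labelled spleen in blue and labelled tumor in orange. The 39 mitosis genes averaged 3.90 to 4.86 in arrays labelled spleen and 0.14 to 2.31 in those labelled tumor, and the melanocyte and macrophage lists were separate in the same direction.

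Promoter sequence was examined because late cell cycle genes are known to share the cell cycle genes homology region (CHR), which binds the DREAM and MuvB complexes, together with CCAAT boxes, which bind NF-Y. RefSeq promoters (GRCm38.p6, 250 bases before to 50 after a start, 300 bases in all) were at hand for 33 of the 40 genes. The CHR was searched as TTTGAA or TTCGAA on both strands. It occurred in 25 of the 33 genes (75.8%), against 21.7% of 27025 genes. A CCAAT box, also on either strand, occurred in 24 (72.7%), against 41.1% of all genes. Both motifs occurred in 22 (66.7%), against 9.65%, and a CHR with at least 2 CCAAT boxes in 15 (45.5%), against 3.08%. E2F sites were searched as TTGGCGC, together with its variants TTCGCGC and, with the other middle letter changed, TTGCCGC and, with both changed, TTCCCGC. They occurred in 4 genes (12.1%), close to the 10.9% of all genes. Motifs may overlap each other, and a match describes letters in this window and shows no binding. Below stand 6 promoters that hold both motifs, from different roles and each from the gene of its role whose levels differed most between the tissue labels among those with both motifs. They are written 5' to 3' on the strand of the gene, with the start before the last 50 bases, and capitals mark CHR elements and CCAAT boxes in either orientation.
Bub1, checkpoint kinase (GRCm38.p6, chr2:127831810-127832109, minus strand): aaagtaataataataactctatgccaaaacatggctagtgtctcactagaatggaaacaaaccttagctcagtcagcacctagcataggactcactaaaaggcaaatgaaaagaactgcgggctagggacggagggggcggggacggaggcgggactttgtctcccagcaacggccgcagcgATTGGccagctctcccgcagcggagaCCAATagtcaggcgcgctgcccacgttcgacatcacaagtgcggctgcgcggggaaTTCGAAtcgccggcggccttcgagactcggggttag
Kif11, spindle motor (GRCm38.p6, chr19:37376132-37376431, plus strand): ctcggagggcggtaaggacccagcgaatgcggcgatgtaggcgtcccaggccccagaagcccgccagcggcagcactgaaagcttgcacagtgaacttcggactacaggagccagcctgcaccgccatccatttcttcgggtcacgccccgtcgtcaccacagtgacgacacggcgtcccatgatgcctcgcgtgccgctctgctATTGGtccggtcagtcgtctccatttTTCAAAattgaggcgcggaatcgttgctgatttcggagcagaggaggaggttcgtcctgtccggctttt
Ccnb2, cyclin B2 (GRCm38.p6, chr9:70421505-70421804, minus strand): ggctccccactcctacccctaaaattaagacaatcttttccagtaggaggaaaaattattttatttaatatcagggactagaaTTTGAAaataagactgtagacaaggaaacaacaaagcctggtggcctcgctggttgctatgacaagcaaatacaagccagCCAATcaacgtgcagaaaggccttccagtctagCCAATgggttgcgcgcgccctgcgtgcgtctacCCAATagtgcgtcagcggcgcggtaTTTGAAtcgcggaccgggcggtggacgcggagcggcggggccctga
Cenpf, outer kinetochore protein (GRCm38.p6, chr1:189688037-189688336, minus strand): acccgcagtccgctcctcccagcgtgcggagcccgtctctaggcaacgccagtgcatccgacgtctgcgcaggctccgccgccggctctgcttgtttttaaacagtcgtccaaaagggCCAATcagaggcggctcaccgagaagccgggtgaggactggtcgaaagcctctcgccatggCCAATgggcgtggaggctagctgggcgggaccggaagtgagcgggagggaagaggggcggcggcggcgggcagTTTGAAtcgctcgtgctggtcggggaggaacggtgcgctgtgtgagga
Ube2c, APC/C ubiquitin-conjugating enzyme (GRCm38.p6, chr2:164769679-164769978, plus strand): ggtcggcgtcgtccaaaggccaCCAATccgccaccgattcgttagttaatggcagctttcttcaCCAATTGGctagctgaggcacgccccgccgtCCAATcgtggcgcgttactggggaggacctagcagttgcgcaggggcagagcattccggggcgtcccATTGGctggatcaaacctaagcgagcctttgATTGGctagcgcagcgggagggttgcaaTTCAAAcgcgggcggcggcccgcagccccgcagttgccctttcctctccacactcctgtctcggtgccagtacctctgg
Top2a, topoisomerase II alpha (GRCm38.p6, chr11:99024140-99024439, minus strand): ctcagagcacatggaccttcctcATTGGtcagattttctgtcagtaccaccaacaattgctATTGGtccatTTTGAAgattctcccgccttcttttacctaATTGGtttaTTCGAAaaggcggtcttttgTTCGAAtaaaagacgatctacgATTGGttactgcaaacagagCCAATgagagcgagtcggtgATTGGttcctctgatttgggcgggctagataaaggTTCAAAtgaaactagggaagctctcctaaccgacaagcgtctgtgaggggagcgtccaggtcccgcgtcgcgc

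With the annotated start base as position 1, the last CHR of the window began at position 15 in Bub1, 3 in Cenpf and 5 in Ccnb2. In Kif11, Ube2c and Top2a it lay just before the start, with its first base at positions -19, -29 and -23. Every CCAAT box of these 6 promoters stood upstream of that CHR. Within the set, the motif did not sort the genes by how far they differed between labels. Median differences, averaged over the 6 hairpins, were -3.21 in the 25 measured genes with a CHR and -3.34 in the 7 without. Genes without an entry were Ccna2, Foxm1, Aurkb, Incenp, Tpx2, Spc24 and Kif20a.

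Mitosis genes were higher in the arrays labelled spleen than in those labelled tumor with every hairpin. With the LacZ control hairpin, 36 of the 39 genes were lower in the arrays labelled tumor and none was higher, while 18.9% of all genes were called lower there. Their median difference was -3.03, from -4.32 to -0.11, and that of all genes was -0.48. The array means of the 39 genes did not overlap: the lowest, median and highest were 3.90, 4.44 and 4.86 in the arrays labelled spleen and 0.14, 1.47 and 2.31 in those labelled tumor. In bulk RNA, fewer cells of a type and less RNA per cell cannot be told apart. Melanocyte and macrophage markers moved the same way (7 of 8 and 8 of 8 called lower with LacZ, medians -3.93 and -3.88), and their part in the result was not tested. Of the T cell markers 1 of 6 was called lower, with a median of -0.5. The 3' to 5' difference of Gapdh was 0.83 to 1.39 in the LacZ arrays labelled spleen and 0.25 to 0.83 in the other 15. In all arrays labelled tumor it was 0.86 to 2.94. It was thus separate between the labels with every hairpin but LacZ, and its part was likewise not tested.

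The same comparison was made with each of the other 5 hairpins, which do not share arrays with LacZ here. With Ppp2r2d 37 genes were called lower (14.5% of all genes), with a median of -3.19, and with Egr2 37 (15.9%), with a median of -3.25. With Ptpn2 the number was 38 (25.1%) and the median the smallest, -2.32. With Arhgap5 37 were lower (21.6%) and the median was the largest in size, -4.19, and with Alk 36 were lower (20%), with a median of -3.5. None was called higher with any hairpin. Medians of all genes lay between -0.48 and 0.34. After quantile normalization, which forces all arrays onto 1 distribution, 36 or 37 genes were lower with each hairpin, and the medians of all genes lay between -0.06 and 0.02. For 33 of the 39 genes every array labelled tumor lay below every array labelled spleen, as for 6.51% of all genes. The 6 that overlapped were Foxm1, Kif2c, Kif22, Pttg1, Kif23 and Racgap1.

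**Figure D2:**
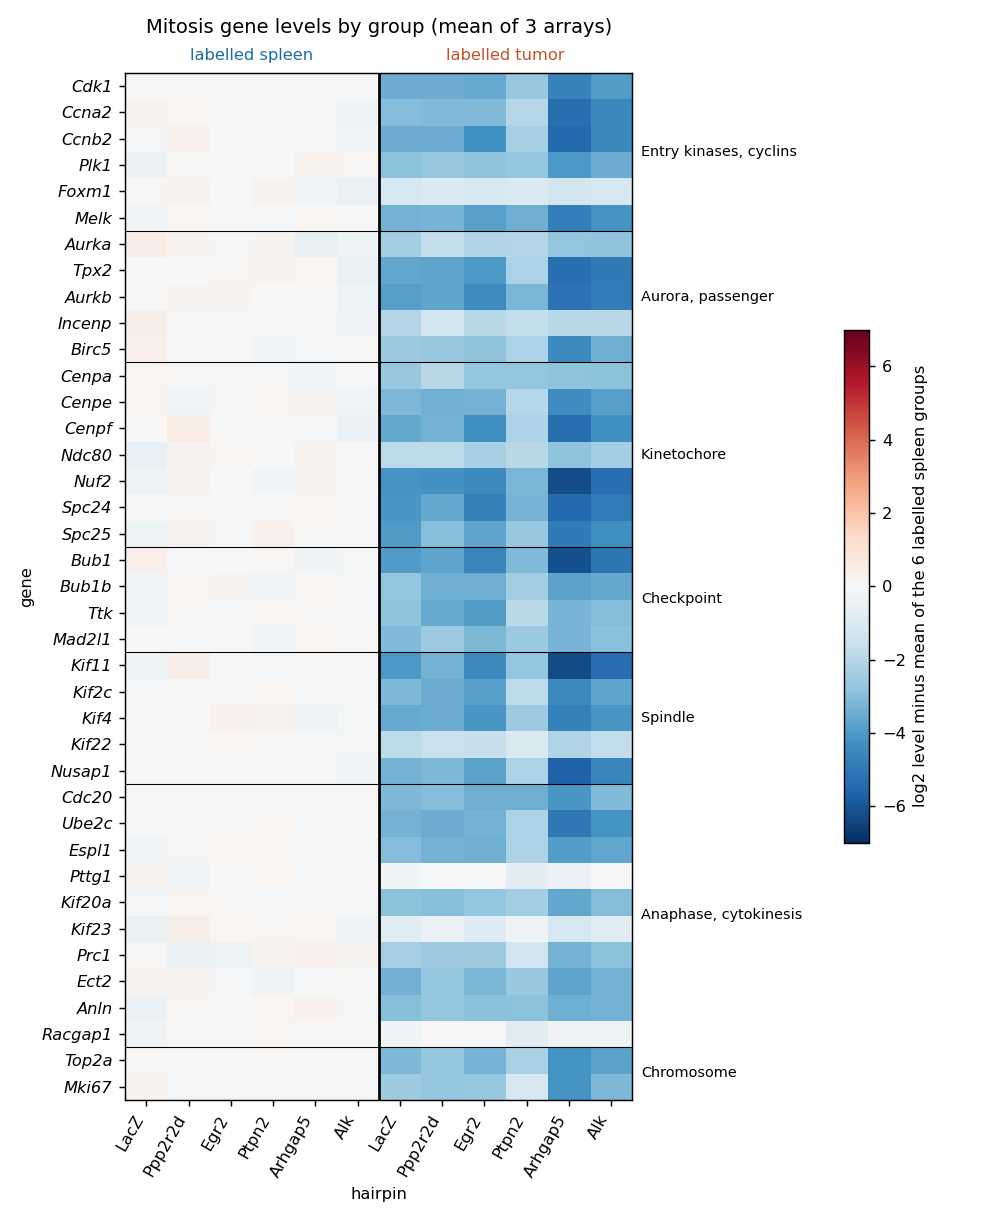
Heat map of the 39 genes, grouped by role, in the 12 groups. Colour is the mean log2 level of 3 arrays minus the gene's mean over the 6 groups labelled spleen. The 6 left columns (labelled spleen) are near 0, the 6 right columns are below 0 for nearly all genes, palest with Ptpn2 and darkest with Arhgap5.

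Among the kinases and cyclins of mitotic entry, all 6 measured genes were called lower in the arrays labelled tumor with all 6 hairpins. Ccnb2, which encodes cyclin B2, differed most. It read 4.50, 5.13 and 5.46 (lowest, median and highest of 18) in arrays labelled spleen and -1.01, 1.48 and 3.01 in those labelled tumor. The groups did not overlap, and the difference ran from -2.35 ± 0.39 with Ptpn2 (adjusted p = 2.18e-05) to -5.46 ± 0.39 with Arhgap5 (adjusted p = 1.34e-12). Cdk1, the kinase they activate, had medians of 5.63 labelled spleen and 2.03 labelled tumor, and Ccna2, cyclin A2, of 5.63 and 2.37. Plk1, the polo kinase of centrosomes and kinetochores, had medians of 2.87 and -0.12, and Melk, a kinase abundant in dividing cells, of 3.68 and -0.04. Foxm1 encodes a transcription factor that switches on late cell cycle genes and showed the smallest difference of the group. Its arrays labelled spleen read 1.67, 2.42 and 2.91 and those labelled tumor 0.92, 1.15 and 1.69, which overlap at their ends. The difference ran from -0.73 ± 0.24 with Alk (adjusted p = 0.0128) to -1.34 ± 0.24 with LacZ (adjusted p = 6.17e-05). Foxm1 also has 3 other probe sets, whose mean differences were -1.84, -3.14 and 0.35, and the positive one belongs to the dimmest of the 4.

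The Aurora kinases and the chromosomal passenger complex, in which Incenp and survivin (Birc5) carry Aurkb to the centromere, were likewise lower with all 6 hairpins (5 of 5 genes). Aurkb read 3.92, 4.51 and 4.84 in arrays labelled spleen and -1.10, 0.24 and 1.46 in those labelled tumor, with no overlap. Its difference ran from -3.22 ± 0.32 with Ptpn2 (adjusted p = 2.66e-09) to -5.14 ± 0.32 with Arhgap5 (adjusted p = 5.43e-14). Incenp, the scaffold of the same complex, had lowest, median and highest values of 5.24, 5.81 and 6.75 against 3.39, 4.09 and 4.79. It differed least among these genes, from -1.33 ± 0.33 with Ppp2r2d (adjusted p = 0.00256) to -2.48 ± 0.33 with LacZ (adjusted p = 5.76e-07). Aurka, which acts at spindle poles, and its activator Tpx2 had medians of 3.44 and 4.74 labelled spleen against 1.05 and 0.73 labelled tumor.

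All 7 kinetochore genes were lower with all 6 hairpins. Nuf2 and Ndc80 are partners in the microtubule-binding complex, yet they stood at the ends of the range. Nuf2 read 3.62, 4.47 and 4.78 in arrays labelled spleen and -2.37, -0.04 and 1.41 in those labelled tumor, and its difference ran from -3.02 ± 0.31 with Ptpn2 (adjusted p = 4.36e-09) to -6.37 ± 0.31 with Arhgap5 (adjusted p = 1.74e-16). Ndc80 read 2.51, 3.40 and 3.87 against 0.40, 1.26 and 1.77. Its difference ran from -1.24 ± 0.24 with LacZ (adjusted p = 0.000242) to -3.02 ± 0.24 with Arhgap5 (adjusted p = 1.85e-11). The other subunits of that complex, Spc24 and Spc25, had mean differences of -4.33 and -3.77. Cenpe, a kinetochore motor, and Cenpf had -3.34 and -3.82, and Cenpa, the centromeric histone, -2.62. With Ptpn2 Cenpa differed by -2.65 and Cenpf by -2.22, and without Ptpn2 array 1 labelled tumor by -2.02 and -2.73. Other probe sets of Cenpa, with mean levels of 3.45 and 2.15 against 4.77, had mean differences of only -0.67 and -0.61. Over the 6 hairpins these ran from -0.08 to -1.36 and from 0.11 to -1.43.

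Of the checkpoint genes, 4 of 4 were lower with all 6 hairpins. Bub1, a kinase that recruits other checkpoint proteins to unattached kinetochores, read 4.40, 4.75 and 5.73 against -2.60, 0.33 and 2.16. Its difference ran from -3.14 ± 0.36 with Ptpn2 (adjusted p = 5.73e-08) to -5.94 ± 0.36 with Arhgap5 (adjusted p = 4.4e-14). Mad2l1 encodes the Mad2 protein that holds Cdc20 inactive. It read 4.53, 5.26 and 5.67 against 1.52, 2.41 and 2.85, and differed by -2.42 ± 0.3 with Ptpn2 (adjusted p = 2e-07) up to -3.38 ± 0.3 with Arhgap5 (adjusted p = 1.44e-10). Bub1b (BubR1) and Ttk (the Mps1 kinase) had mean differences of -3.22 and -3.08.

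Spindle motors and the microtubule bundler Nusap1 were lower with all 6 hairpins (5 of 5 genes). Kif11, the motor that pushes spindle poles apart, read 3.87, 4.67 and 5.15 against -1.83, 0.12 and 2.16. Its difference ran from -2.65 ± 0.35 with Ptpn2 (adjusted p = 5.4e-07) to -6.35 ± 0.35 with Arhgap5 (adjusted p = 4.27e-15). Other probe sets of Kif11, with mean levels of 2.34 and 1.65 against 2.43, had smaller mean differences, -2.51 and -3.92 against -4.34. Their largest differences with any hairpin were -3.28 and -5.28. Kif22, a chromosome-arm motor, read 2.90, 3.81 and 4.54 against 1.32, 2.10 and 3.17 and overlapped. Its difference was -1.13 ± 0.35 with Ptpn2 (adjusted p = 0.01) and -2.04 ± 0.35 with Arhgap5 (adjusted p = 2.6e-05), the extremes of the 6. Its 2 other probe sets had larger mean differences, -3.03 and -2.89, than the -1.64 of the probe set used. Kif2c, which takes apart faulty attachments, overlapped through Ptpn2 array 1 labelled tumor alone, at 2.72 against 2.53 to 3.66 in arrays labelled spleen. The next highest array labelled tumor read 0.95 for Kif2c.

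Genes of anaphase and of cytokinesis, the division of the cell body, were the most mixed. Of the 10, 7 were lower with all 6 hairpins: Cdc20, Ube2c, Espl1, Kif20a, Prc1, Ect2 and Anln. Ube2c, which feeds ubiquitin to the APC/C, read 5.63, 5.98 and 6.46 against 0.67, 2.39 and 3.85. Its difference ran from -2.33 ± 0.35 with Ptpn2 (adjusted p = 4.13e-06) to -4.86 ± 0.35 with Arhgap5 (adjusted p = 1.33e-12). Cdc20 and Espl1 had mean differences of -3.36 and -3.26, and the cytokinesis genes Prc1, Ect2 and Anln of -2.47, -3.15 and -3.03. With Ptpn2 Cdc20 differed by -3.4, and by -2.21 without Ptpn2 array 1 labelled tumor. The exceptions were Kif23, Racgap1 and Pttg1. Kif23 and Racgap1 together form centralspindlin, the complex that organises the midzone of the dividing cell, and Pttg1 encodes securin, the inhibitor of separase. Kif23 read 3.03, 3.97 and 4.38 against 2.50, 3.25 and 3.72 and was called lower with 3 hairpins. Racgap1 read 3.36, 4.08 and 4.29 against 1.75, 3.89 and 4.67, and Pttg1 5.99, 6.20 and 6.83 against 4.31, 5.99 and 6.78.

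Racgap1 and Pttg1 were each called with Ptpn2 and with no other hairpin, at -0.95 ± 0.39 (adjusted p = 0.0438) and -0.87 (adjusted p = 0.0279). Those calls rested on Ptpn2 array 1 labelled tumor, where Racgap1 read 1.75 against 4 and 4.04 in the other arrays of its group and Pttg1 4.31 against 5.8 and 6.39. Without that array the differences were -0.19 (adjusted p = 0.618) and -0.28 (adjusted p = 0.391), and 36 of the 39 genes were lower with Ptpn2. With the other hairpins Racgap1 differed by -0.31 to -0.04, and quantile normalization turned its sign with LacZ, Ppp2r2d, Egr2 and Arhgap5, cyclic loess with LacZ, Egr2 and Arhgap5, and the mean of all probe sets with Egr2 and Alk. Each of the 3 had 2 further probe sets. Their mean differences were -1.59 and 0.2 for Kif23, against -0.74 for the probe set used, -0.3 and 0.52 for Racgap1, against -0.3, and -0.7 and 1.12 for Pttg1, against -0.29. The positive one was in each gene the probe set with the lowest mean level. Over all 82 probe sets of the 39 genes, 74 had a negative mean difference.

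The remaining pair are markers of dividing chromosomes. Top2a, the topoisomerase that untangles sister chromatids, read 5.90, 6.25 and 6.64 in arrays labelled spleen and 1.77, 3.13 and 4.37 in those labelled tumor. Its difference ran from -2.32 ± 0.32 with Ptpn2 (adjusted p = 1.27e-06) to -4.16 ± 0.32 with Arhgap5 (adjusted p = 7.18e-12). Mki67, which encodes the Ki-67 protein that coats mitotic chromosomes, read 5.82, 6.31 and 7.02 against 1.65, 3.57 and 5.38. It differed by -1.28 ± 0.39 with Ptpn2 (adjusted p = 0.00919) and by -4.08 ± 0.39 with Arhgap5 (adjusted p = 5.87e-10). Neither gene overlapped between the labels.

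**Figure D3:**
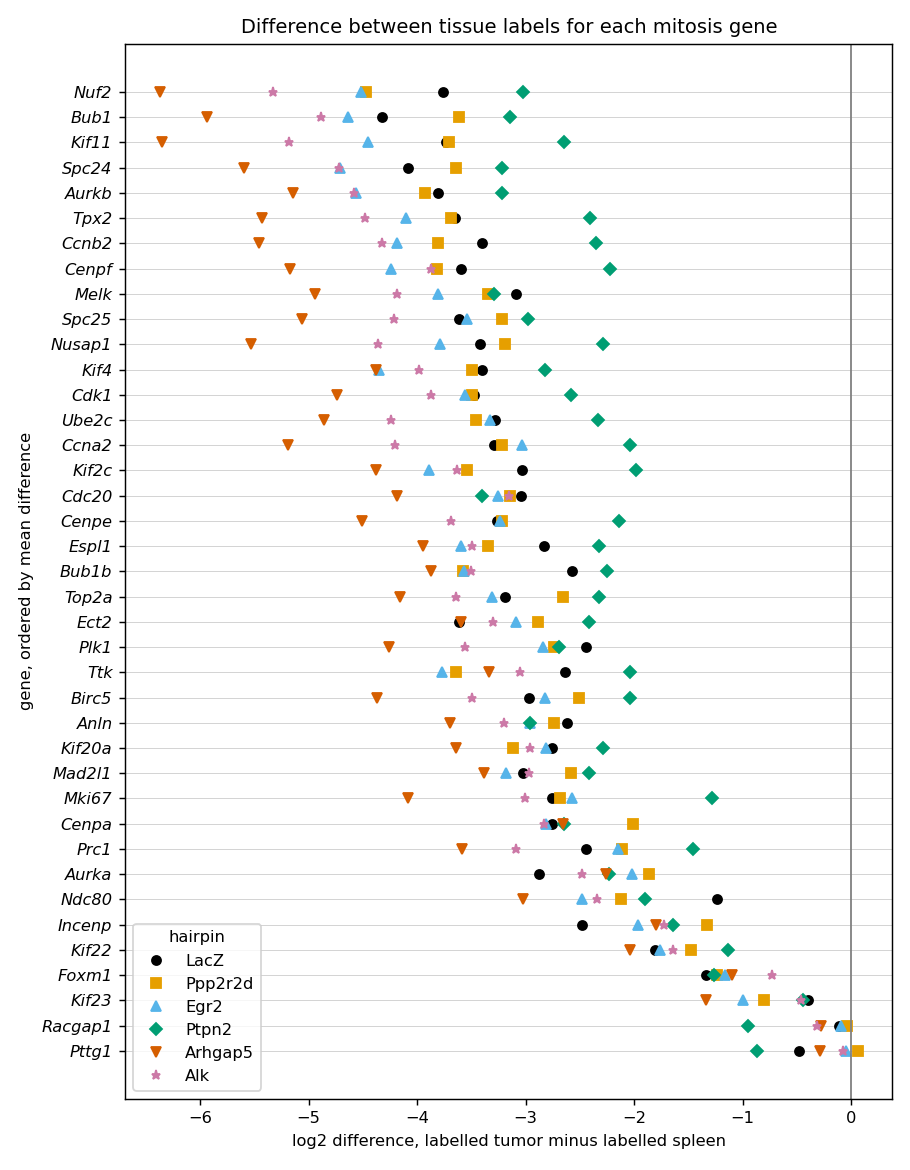
Log2 difference, labelled tumor minus labelled spleen, of each of the 39 genes (rows) with each of the 6 hairpins (symbols). Nuf2, Bub1 and Kif11 lie farthest left, Pttg1, Racgap1 and Kif23 lie nearest 0, and Arhgap5 gives the leftmost symbol and Ptpn2 the rightmost for most genes.

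The 6 hairpins lay close together in the arrays labelled spleen and far apart in the arrays labelled tumor. The range of the 6 group means of a gene had a median of 0.48 under the spleen label and 1.93 under the tumor label, and it was larger under the tumor label for 37 of the 39 genes (all but Foxm1 and Kif23). The mean of the 39 genes, which is given as a description with no test, lay between 4.31 ± 0.10 (Alk) and 4.51 ± 0.10 (Ppp2r2d) under the spleen label. Under the tumor label it was 0.14, 0.73 and 0.56 in the 3 Arhgap5 arrays and 0.81, 0.86 and 1.36 in the Alk arrays. It was 2.00, 1.08 and 1.58 with LacZ, 0.93, 2.01 and 1.04 with Egr2, 1.76, 1.67 and 1.68 with Ppp2r2d and 2.08, 2.31 and 2.25 with Ptpn2. The 3 Arhgap5 arrays were the lowest of the 18 and the 3 Ptpn2 arrays the highest, while LacZ, Egr2 and Alk overlapped one another. The 3 Ppp2r2d arrays lay within the ranges of LacZ and of Egr2. Arhgap5 had the lowest group mean for 33 of the 39 genes, and Ptpn2 the highest for 27. Such ranges and ranks are not given for all genes, so it cannot be told whether they are particular to the set.

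**Figure D4:**
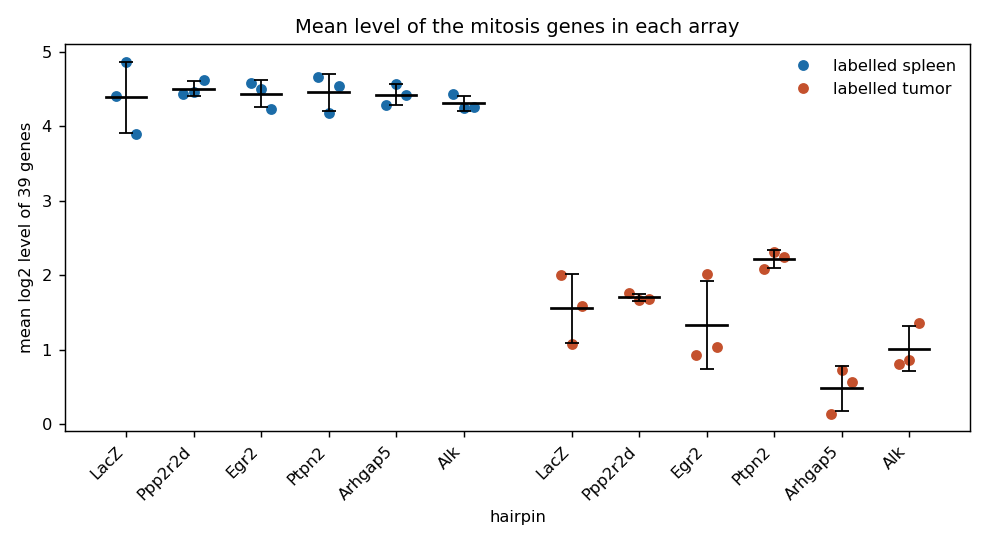
Mean log2 level of the 39 genes in each array (points), with the mean and SD of the 3 arrays of a group (bars). Arrays labelled spleen lie between 3.90 and 4.86, and arrays labelled tumor between 0.14 (Arhgap5) and 2.31 (Ptpn2).

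Within a group the genes also varied together from array to array. After each group mean was taken out, the 741 pairs of genes had a median correlation over 18 arrays of 0.74 under the spleen label and of 0.52 under the tumor label. These correlations are a description, since genes of 1 array share its RNA and its scaling. Under the spleen label the mean of the 39 genes varied most between the LacZ arrays. Its SD there was 0.48, and 0.04 after quantile normalization. The part of scaling in the correlations was not tested. In every array labelled spleen all 39 genes lay above the array's median. In arrays labelled tumor 0 to 17 of them lay below it, where a log2 level is read as low and not as an amount.

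Against LacZ in arrays labelled spleen, the set showed few changes, and LacZ itself stands apart there. With Ppp2r2d 2 genes rose, a share of the 39 no larger than the 6.15% of all genes called higher. They were Ndc80, by 0.86 ± 0.24 (adjusted p = 0.0199), and Kif23, by 0.85 ± 0.26 (adjusted p = 0.0307). Both had their lowest group mean under the spleen label with LacZ. Ndc80 read 3.61, 3.78 and 3.46 with Ppp2r2d and 2.78, 2.99 and 2.51 with LacZ, with no overlap. With Arhgap5 Ndc80 rose by 0.81 ± 0.24 (adjusted p = 0.0354), the only gene called. That too is no larger a share than the 3.03% of all genes called higher. Leaving out Ppp2r2d array 2 or LacZ array 3 ended both calls with Ppp2r2d, and leaving out any Arhgap5 array or LacZ array 1 ended that with Arhgap5. Limma called none with Egr2, Ptpn2 and Alk, where 3.23%, 9.58% and 7.4% of all genes were called, and 2, 1 and 3 genes of the set had an unadjusted p under 0.05. With the LacZ arrays left out, each hairpin was set against the mean of the other 4. Limma then called none of the 39 for any hairpin, with 1 (Ppp2r2d), 0, 0, 0 and 3 (Alk) of them at an unadjusted p under 0.05. Of all genes 4.19% were called with Ppp2r2d, 0.28% with Egr2, 1.05% with Ptpn2, 1.18% with Arhgap5 and 1.34% with Alk.

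In arrays labelled tumor, the lowest levels were those with the Arhgap5 hairpin. Against LacZ, 14 of the 39 genes fell and none rose, where 0.297% of all genes were called lower. The median difference was -1.03, and 37 of the 39 differences were negative, while the median of all genes was 0.06. The 14 were Ccna2, Ccnb2, Plk1, Melk, Tpx2, Birc5, Cenpf, Nuf2, Spc24, Bub1, Kif11, Nusap1, Ube2c and Mki67, so each of the 7 roles was represented. Arhgap5 mRNA itself differed by -0.47 ± 0.35 (adjusted p = 1) in these arrays and by 0.45 ± 0.35 (adjusted p = 0.396) in those labelled spleen, so a loss of the target was not shown.

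Among the 4 with the largest differences, Nusap1 read -1.16, 0.5 and 0.42 with Arhgap5 and 2.87, 1.38 and 2.45 with LacZ, a difference of -2.31 ± 0.42 (adjusted p = 0.00336). Kif11 read -1.83, -1.48 and -1.73 against 1.49, -0.2 and 0.43, a difference of -2.25 ± 0.35 (adjusted p = 0.000469). Ccna2 read -0.21, 0.66 and 0.73 against 3.26, 1.88 and 2.76, a difference of -2.24 ± 0.42 (adjusted p = 0.00558). In these 3 genes each Arhgap5 array lay below each LacZ array. Bub1, with -2.6, -0.61 and -0.94 against 1.45, 0.31 and 0.76, was likewise separate, at -2.22 ± 0.36 (adjusted p = 0.00102). The number called depended on single arrays: it was 3 without LacZ array 1 or Arhgap5 array 1, 7 without LacZ array 3 and 9 without Arhgap5 array 3. A fit to these 6 arrays alone, which estimates the spread from fewer arrays, called none. Limma called no marker of melanocytes, macrophages or T cells in this comparison (0 of 8, 0 of 8 and 0 of 6, with 0, 1 and 0 at an unadjusted p under 0.05), and their medians were 0.05, -0.17 and -0.09. No B cell, erythroid or stromal marker was called either. Among these, Blk, a B cell gene, differed by 1.07 ± 0.36 (adjusted p = 0.494) and Col1a1 by 1.03 ± 0.57. The erythroid genes Alas2 and Klf1 differed by -1.04 ± 0.72 and -1.02 ± 0.5. The part of these markers was not tested.

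Ptpn2 encodes a phosphatase that restrains T cell receptor and cytokine signalling. In arrays labelled tumor, the highest levels were those with the Ptpn2 hairpin. Against LacZ 33 of the 39 differences were positive, with a median of 0.8 against 0.24 for all genes. Limma called none of them on the deposited values, 22 had an unadjusted p under 0.05, and 0.764% of all genes were called. The largest differences were those of Cenpf, at 1.42 ± 0.37 (adjusted p = 0.0582), and Tpx2, at 1.39 ± 0.35 (adjusted p = 0.0534). Tpx2 read 2.92, 2.2 and 2.28 with Ptpn2 and 1.65, 0.45 and 1.14 with LacZ, with no overlap. Cenpf read 1.79, 0.65 and -0.12 against -0.06, -1.1 and -0.79, and its highest value is that of the array that stands apart. Quantile normalization moved 18 of the genes past the threshold, all of them higher (1.86% of all genes called higher), and cyclic loess 14. Without Ptpn2 array 1 limma called none again, and all 39 differences were positive, with a median of 0.74. The number was 4 without Ptpn2 array 3, 5 without LacZ array 1 and 11 without Ptpn2 array 2. Melanocyte, macrophage and T cell markers had medians of 0.54, 0.41 and -0.34 here, none called by limma and 3, 1 and 0 at an unadjusted p under 0.05. B cell, erythroid and stromal lists had medians of 0.75, 0.62 and 0.63, with 0 of 5, 0 of 4 and 0 of 6 called and 3, 0 and 1 at an unadjusted p under 0.05. Cdh5, an endothelial cadherin, differed by 2.12 ± 0.54 (adjusted p = 0.0536), more than any of the 39 genes. The part of these markers was not tested. Ptpn2 mRNA itself differed by -0.38 ± 0.28 (adjusted p = 0.417) in these arrays and by -0.79 ± 0.28 (adjusted p = 0.0727) in those labelled spleen. A loss of the target was thus not shown.

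The other hairpins differed less from LacZ in the arrays labelled tumor. With Alk the median difference was -0.57 and 31 of the 39 were negative, led by Ccna2 at -1.46 ± 0.42 (adjusted p = 0.123) and Tpx2 at -1.35 ± 0.35 (adjusted p = 0.123). Limma called none, 15 had an unadjusted p under 0.05, and 0.0055% of all genes were called. Egr2 had a median of -0.17, with none called and 4 at an unadjusted p under 0.05 (0.0275% of all genes called), and its largest difference was that of Ttk, -1.11 ± 0.33 (adjusted p = 0.771), followed by Ccnb2 at -0.74 ± 0.39 (adjusted p = 0.771). Ppp2r2d had a median of 0.14, with none called and 5 at an unadjusted p under 0.05 (0.995% of all genes called). Spc25 led there at 0.99 ± 0.39 (adjusted p = 0.235), followed by Aurka at 0.78 ± 0.4 (adjusted p = 0.387). These 5 comparisons share the LacZ arrays. The calls with Alk changed with the scaling and with LacZ array 2, without which 11 genes were called. Alk mRNA itself differed from LacZ by 1.13 ± 0.48 (adjusted p = 0.138) in these arrays and by -1.32 ± 0.48 (adjusted p = 0.0828) in those labelled spleen. Its means with the hairpin, -0.63 and -2.24, lay below the array medians. A loss of the target was thus not shown.

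**Figure D5:**
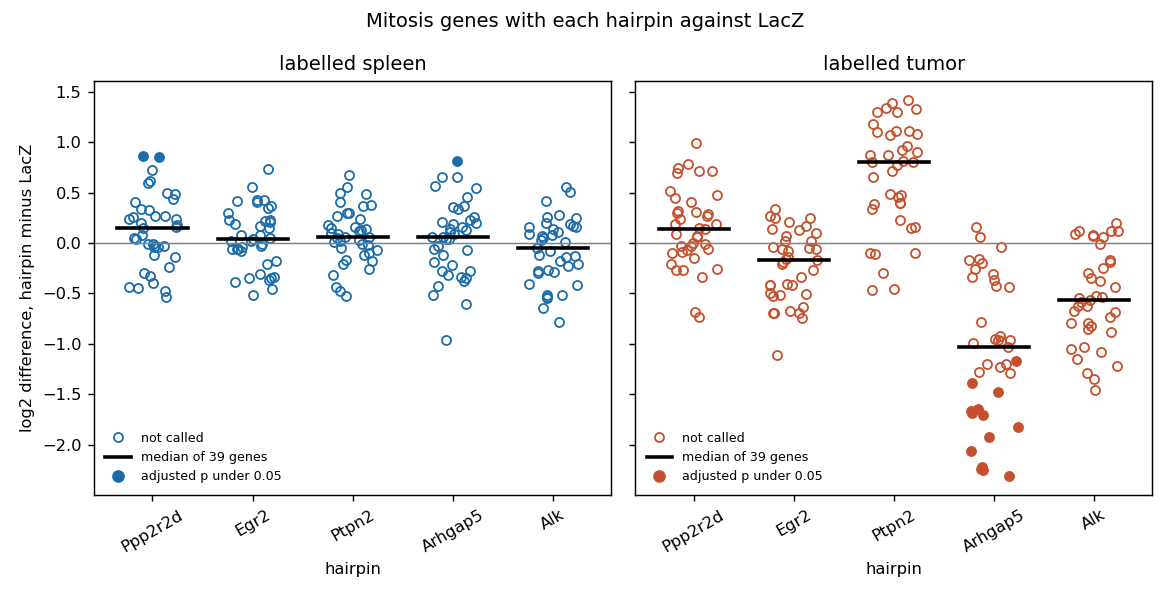
Log2 difference from LacZ of each of the 39 genes with each hairpin, in arrays labelled spleen (left) and labelled tumor (right), where filled points are called and bars are medians. Medians lie between -0.05 and 0.15 on the left and between -1.03 (Arhgap5) and 0.8 (Ptpn2) on the right.

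Each hairpin was also set against the other 4 in arrays labelled tumor, a comparison added after the data were seen, which leaves out the LacZ arrays. With Ptpn2 23 genes were higher and none lower (1.96% of all genes called higher), led by Tpx2 at 2.26 ± 0.28 (adjusted p = 2.79e-06) and Kif11 at 2.13 ± 0.28 (adjusted p = 7.16e-06). Without Ptpn2 array 1 the number was 21, and after quantile normalization 31 were higher and 1, Pttg1, was lower. Arhgap5 had 20 lower and none higher (0.698% called lower), led by Kif11 at -2.34 ± 0.28 (adjusted p = 3.88e-06) and Nusap1 at -2.22 ± 0.33 (adjusted p = 0.000161), and the number was 8 without Arhgap5 array 1. Ppp2r2d had 10 higher (7.66% called higher), a number that was 2 to 3 without any 1 of its own arrays and 18 without Egr2 array 2. Its largest difference was that of Kif11, 1.4 ± 0.28 (adjusted p = 0.00145). Limma called none with Egr2 and Alk, with 2 and 15 genes at an unadjusted p under 0.05 and 0.055% and 0.412% of all genes called. The 5 comparisons share arrays with each other.

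Whether the difference between tissue labels itself changed with a hairpin was tested as an interaction with LacZ. With Arhgap5 9 genes had a larger fall than with LacZ (0.824% of all genes called lower), and the median interaction of the 39 was -1.26 against 0.21 for all genes. Kif11 differed by -6.35 with Arhgap5 and -3.73 with LacZ, an interaction of -2.61 ± 0.49 (adjusted p = 0.0067). Nuf2 differed by -6.37 and -3.76, also an interaction of -2.61 (SE 0.43, adjusted p = 0.00311). Nusap1 (-2.12 ± 0.59, adjusted p = 0.046) and Ccnb2 (-2.06 ± 0.55, adjusted p = 0.0395) followed, and Plk1, Melk, Tpx2, Ndc80 and Spc24 were the others. The number was 4 or 5 without LacZ array 3 or any Arhgap5 array labelled spleen, or without LacZ array 1 or 3 or any Arhgap5 array labelled tumor. It was 18 without LacZ array 2 labelled tumor. A fit to the compared arrays alone called 0 of them, the fit with a replicate block 5, and quantile normalization and cyclic loess 15 each.

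With Alk 4 genes had a larger fall than with LacZ (2.24% of all genes called lower): Nuf2 (-1.57 ± 0.43, adjusted p = 0.0164), Kif11 (-1.44 ± 0.49, adjusted p = 0.0325), Plk1 (-1.13 ± 0.33, adjusted p = 0.0185) and Ndc80 (-1.1 ± 0.35, adjusted p = 0.0237). The number was 0 without LacZ array 1 or Alk array 1 labelled tumor and 2 without Alk array 1 labelled spleen. A fit to the compared arrays alone called 1, and after quantile normalization 5 were lower and 1, Foxm1, was higher. Limma called no interaction with Ptpn2, Ppp2r2d or Egr2, with 10, 4 and 3 genes at an unadjusted p under 0.05 and 17.3%, 0.786% and 0% of all genes called. Without Ptpn2 array 1 labelled tumor it again called none with Ptpn2, and the median interaction was 0.71 against 0.68 with it. After quantile normalization 4 genes were higher with Ptpn2, where 2.22% of all genes were called, and after cyclic loess 10. Of these, Mki67 with Ptpn2 came nearest, at 1.47 ± 0.55 (adjusted p = 0.058). Every interaction rests on the LacZ arrays labelled spleen, which stand apart, so they could not be given without them.

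Other genes of mitosis, from lists that hold none of the 39, were also compared between labels with LacZ, where 18.9% of all genes were called lower and 6.31% higher. Spindle and centrosome genes fell as a whole (21 of 21, median -2.36), led by Hmmr (-4.19), Nek2 (-3.83), a centrosomal kinase, and Cep55 (-3.6), which acts in the final cut between daughter cells. Of the outer kinetochore and checkpoint list 14 of 19 fell, with a median of -2.53. Its largest differences were Ska1 (-3.86), which couples kinetochores to microtubules, Kntc1 (-3.31) and Sgo2a (-3.21), a protector of centromeric cohesion. Of the inner kinetochore list 13 of 15 fell (median -1.74), led by Cenpp (-4.03) and Cenpk (-3.07), and of condensin subunits 6 of 8 (median -2.25), led by Ncapg2 (-3.45). DNA replication genes followed, with 18 of 20 lower and a median of -2.5, led by Cdc6 (-4.05), Cdc45 (-3.88) and Gins1 (-3.47).

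In the same comparison with LacZ, where 18.9% of all genes were called lower, 6 of 11 genes of the cohesin list fell (median -0.9). The largest falls were in Cdca5 (-3.51) and Esco2 (-3.46), which establish cohesion during replication, while the ring subunits Smc1a and Smc3 differed by -1.07 and -0.95. Of APC/C subunits and partners 7 of 15 fell (median -0.74), led by Cdc23 (-2.08). Of entry regulators 11 of 18 fell and 1 rose (median -1.26): Mybl2, which activates late cell cycle genes together with MuvB, was at -3.84, and Lin52, a core subunit of MuvB, rose by 1.18 (adjusted p = 0.000859). In the comparison of Arhgap5 with LacZ labelled tumor 0.297% of all genes were called lower. The spindle and centrosome list had 3 of 21 lower, Psrc1 (-2.64), Hmmr (-2.23) and Spag5 (-1.72), the outer kinetochore list 2 of 19 (Knl1 and Ska1), the inner kinetochore list 1 of 15 (Cenpi) and condensin 1 of 8 (Ncaph). The replication list had 1 of 20 (Mcm10, -2.48) and a median of -0.37. The cohesin, APC/C and entry lists had none called there by limma (0 of 11, 0 of 15 and 0 of 18, with 1, 0 and 3 at an unadjusted p under 0.05).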

How the data were processed

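RNA was measured on 36 single-channel arrays, 3 for each of 12 groups. The authors' deposited values are on the log2 scale and, per the submitters' processing notes, come from RMA; the sources used here do not give its version or settings. How arrays were centred is not stated. Groups and array numbers come from the labels. Of the probe sets, 34945 carried 1 gene symbol, 932 several and 9160 none, beside 64 controls. Of several probe sets of a gene the one with the highest average level was taken, for 18193 genes.

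Differences were fitted with limma 3.58.1 in R 4.3.3, with 1 coefficient per group over all 36 arrays (24 residual and 6.75 prior degrees of freedom) and eBayes, and p-values, two-sided, were adjusted by Benjamini-Hochberg over all genes of a comparison. There were 26 planned comparisons and 5 added after seeing the data. The fit was tested on simulated data. No pairing by array number was seen: over 18 same-numbered pairs the residuals correlated at -0.24 to 0.24, in 4 pairs above 0.1. With 3 arrays a group this cannot decide whether same-numbered arrays share an animal, and the labels do not say. Identical pairs of arrays numbered 0.

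The genes, their roles, the other lists and the naming rule were chosen with earlier results of these data known. In each role the genes with the largest and smallest mean difference between labels were given in full. For each other comparison up to 4 called genes by size could be named or, with none called, the 2 largest, and not all of these are printed; a few others are named as illustrations and were chosen after their values were seen. For other lists up to 3 called genes were named, with some further ones chosen after their values were seen. Alternatives were a filter on low genes (14144 pass, with 3 or more arrays over the 40th percentile), averaging all probe sets of a gene, quantile normalization, cyclic loess, a replicate block, fewer arrays in the fit and leaving out each array. Promoters are RefSeq's (GRCm38.p6).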

Additional observations from a re-analysis of the deposited data

Results flagged for a closer look

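The difference between tissue labels was tested against that of LacZ for each hairpin. With Arhgap5 9 of the 39 genes differed by this interaction term, all with a larger fall under the tumor label, where 0.824% of all genes were called lower. The largest were Kif11 (-2.61), Nuf2 (-2.61), Nusap1 (-2.12) and Ccnb2 (-2.06). With Alk 4 genes differed, where 2.24% of all genes were called lower: Nuf2 (-1.57), Kif11 (-1.44), Plk1 (-1.13) and Ndc80 (-1.1). Fitted to the compared arrays alone, 0 of the 39 differed with Arhgap5 and 1 with Alk. Every interaction rests on the LacZ arrays labelled spleen, which stand apart.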

How the results depend on the processing

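The comparison between tissue labels called 34 to 38 of the 39 genes lower, and none higher, under each setting and with each array left out. With the filter the number for Ptpn2 against LacZ labelled tumor was 3 and for Alk against the other 4 labelled tumor 2. With the mean of all probe sets it was 2 for Arhgap5 against LacZ labelled spleen (both higher), 1 for Ptpn2 against LacZ labelled tumor, 3 for the Ptpn2 interaction and 5 for Ppp2r2d against the other 4 labelled tumor (4 higher, 1 lower). Against LacZ, quantile normalization gave 2 (Arhgap5, 1 in each direction) and 1 (Alk, lower) labelled spleen and 1 (Ppp2r2d, lower), 18 (Ptpn2, higher) and 4 (Alk, lower) labelled tumor. Cyclic loess gave 2 (lower) and 3, then 1, 14 and 7, in the same order and otherwise the same directions. Against the other 4, quantile normalization gave 1 (Ppp2r2d) and 1 (Alk) labelled spleen, both lower, and 5 (Ppp2r2d, higher) and 10 (Alk, lower) labelled tumor, and cyclic loess 2 (Ppp2r2d, 1 in each direction) labelled spleen and 4 and 6 labelled tumor. Interactions numbered 4 (Ptpn2, higher) and 15 (Arhgap5, lower) after quantile normalization and 10 and 15 after cyclic loess. Of all genes, quantile normalization called 1.17% higher for the Ptpn2 interaction and 1.46% lower for that of Arhgap5. Against LacZ labelled tumor it called 1.86% higher for Ptpn2 and 0.203% lower for Alk. Against the other 4 labelled tumor it called 4.68% higher for Ppp2r2d and 1.47% lower for Alk. The replicate block left 5 Arhgap5 interactions and moved no other count by over 1.5 times. A fit to the arrays compared alone gave 0 for Ppp2r2d and 0 for Arhgap5 against LacZ labelled spleen, 0 for Arhgap5 and 4 for Alk labelled tumor, 1 for Ppp2r2d and 2 for Alk against the other 4 labelled spleen, 2 for Ppp2r2d and 7 for Arhgap5 against the other 4 labelled tumor, and 0 (Arhgap5) and 1 (Alk) interactions. The causes of these changes were not tested, except that this last setting has fewer arrays to estimate the spread.

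Leaving out 1 array gave, against LacZ labelled spleen, 0 to 2 genes for Ppp2r2d, 0 to 1 for Arhgap5 and 0 to 1 for Alk (1 without LacZ array 3). Labelled tumor it gave 0 to 2 for Ppp2r2d (2 without LacZ array 1), 0 to 11 for Ptpn2, 3 to 17 for Arhgap5 and 0 to 11 for Alk. Against the other 4 labelled tumor it gave 2 to 18 for Ppp2r2d, 21 to 25 for Ptpn2, 8 to 22 for Arhgap5 and 0 to 5 for Alk (5 without Egr2 array 2). Interactions ran from 0 to 1 for Egr2, 0 to 7 for Ptpn2 (7 without LacZ array 3 labelled spleen), 4 to 18 for Arhgap5 and 0 to 5 for Alk.

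Few genes turned sign, none of them past the threshold in the alternative. Racgap1 between labels was 0.21 (LacZ), 0.06 (Ppp2r2d), 0.08 (Egr2) and 0.17 (Arhgap5) after quantile normalization, 0.15 (LacZ), 0.06 (Egr2) and 0.08 (Arhgap5) after cyclic loess, and 0.11 (Egr2) and 0.33 (Alk) with the mean of all probe sets. With 1 array left out it ran from -0.34 to 0.09 (LacZ), -0.12 to 0.07 (Ppp2r2d) and -0.44 to 0.22 (Egr2). Tpx2 in Alk against LacZ labelled tumor was 0.01 with the mean of all probe sets. Ccna2 in Egr2 against the other 4 labelled tumor ran from -0.02 without Egr2 array 2 to 1.07 without Egr2 array 3. Signal over background was not measured, and with 3 arrays a group precision is limited by their number.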
